A study of Mus musculus with 4 samples.

Results

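The genes described here encode the machinery that licenses, starts and carries out DNA replication, the enzymes that supply its nucleotides, and the cyclins, kinases, RB proteins and E2F factors that control entry into S phase. The list has 51 genes, chosen by name and function with earlier results of these data known. All 51 were found among the 17097 genes that the array annotation pairs with exactly 1 symbol. Where a gene had several probe sets, the brightest by its mean of the 4 arrays was used. The samples were mouse brown adipocytes carrying a short hairpin RNA, which silences a matching transcript. The hairpin was a scrambled one in the control group (scramble) and one directed at Blnc1, a long noncoding RNA of brown fat, in the other (knockdown), with 2 arrays in each. Both groups were differentiated for 6 days before RNA was taken, and 250 ng of total RNA was labelled per array. The comparison asks which transcripts differ when Blnc1 is knocked down. The labels call the arrays biological replicates without saying whether they were separate cultures, so p-values measure only the spread between these samples. The labels name no promoter for the hairpins and no clone of the cells, and the level of Blnc1 itself was not analysed here.

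As background, replication origins are licensed in G1 when the origin recognition complex, CDC6 and CDT1 load the MCM helicase onto DNA. Cyclin D with CDK4 or CDK6, and then cyclin E with CDK2, phosphorylate the RB proteins, which frees E2F factors to transcribe many of the replication genes. Precursors of brown fat cells divide, and mature fat cells have left the cell cycle, so these genes are usually high before differentiation and low after it. In a culture, fewer cells of a type and less RNA per cell cannot be told apart.

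Most of the members, like most of all genes, did not pass the test. Of the 8 cyclins and kinases, 6 passed (75%, against 18.5% of all genes). Of the 51 genes, 9 were higher in knockdown, 5 were lower and 37 did not pass limma's test at an adjusted p of 0.05 over all genes. Among all genes tested, 11.4% were higher and 7.18% lower, against 17.6% and 9.80% of the members. In either direction 18.5% of all genes, 24.2% of genes with a mean above background and 27.5% of the members passed. All 51 members read above the background log2 value of 2.55 on all 4 arrays, and among genes with a mean above background 15.3% were higher and 8.94% lower, so the members' shares were near the background in both directions. The median log2 fold change of the members was 0.04, and that of all genes was -0.04. The members' median turned to -0.06 after quantile normalization and was 0.10 with each array centred on its median.

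The changes were small. The log2 fold changes ran from -0.63 (Cdk6, 1.55-fold lower) to 0.76 (Fen1, 1.69-fold higher), close to Ccnd2 and Ccnd1 at 0.75. The order at both ends depends on the processing: after quantile normalization the ends were Pold1 (-0.73) and Ccnd2 (0.70), and with the mean of a gene's probe sets Uhrf1 (-0.73) and Ccnd1 (1.01). Of the 51, 44 lay within 0.5 of 0. The scramble and knockdown arrays did not overlap in 33 members, 21 higher (41.2%) and 12 lower (23.5%) in knockdown, where 28.3% and 34.3% of all genes were separated in those directions. With limma's treat, which asks for a change beyond 0.5 log2 units, 0 members passed. Of all genes, 1.7% passed treat as higher and 0.275% as lower. An unadjusted treat p under 0.05 was found for 2 members, and all genes were not counted at that threshold.

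The counts depended on single arrays. Without scramble replicate 1, 5 members were higher and 3 lower, against 9.83% and 5.53% of all genes. Without scramble replicate 2 they were 6 and 3, against 9.79% and 6.83%. Leaving out knockdown replicate 1 gave 4 and 1, against 5.39% and 1.82%, and leaving out knockdown replicate 2 gave 2 and 1, against 4.65% and 1.49%. Scaling moved the split between directions: quantile normalization gave 6 higher and 6 lower members (8.86% and 9.15% of all genes), and median centring gave 9 and 4 (13.9% and 4.94%). With a trend in eBayes, which lets the assumed spread follow the level, 14 were higher and 9 lower (15% and 10.5%). Without the dimmest 40 percent of genes 9 were higher and 5 lower (20.4% and 11.9%), as with robust eBayes (11.2% and 6.95%) and with the replicate number as a block (11.4% and 7.17%). The mean of a gene's probe sets gave 10 and 6 (10.5% and 7.15%), and probe sets of the specific type gave 12 and 5 (10.8% and 6.83%). A gene with none of that type, such as Cdc6 or Fen1, kept its brightest probe set there.

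**Figure D1:**
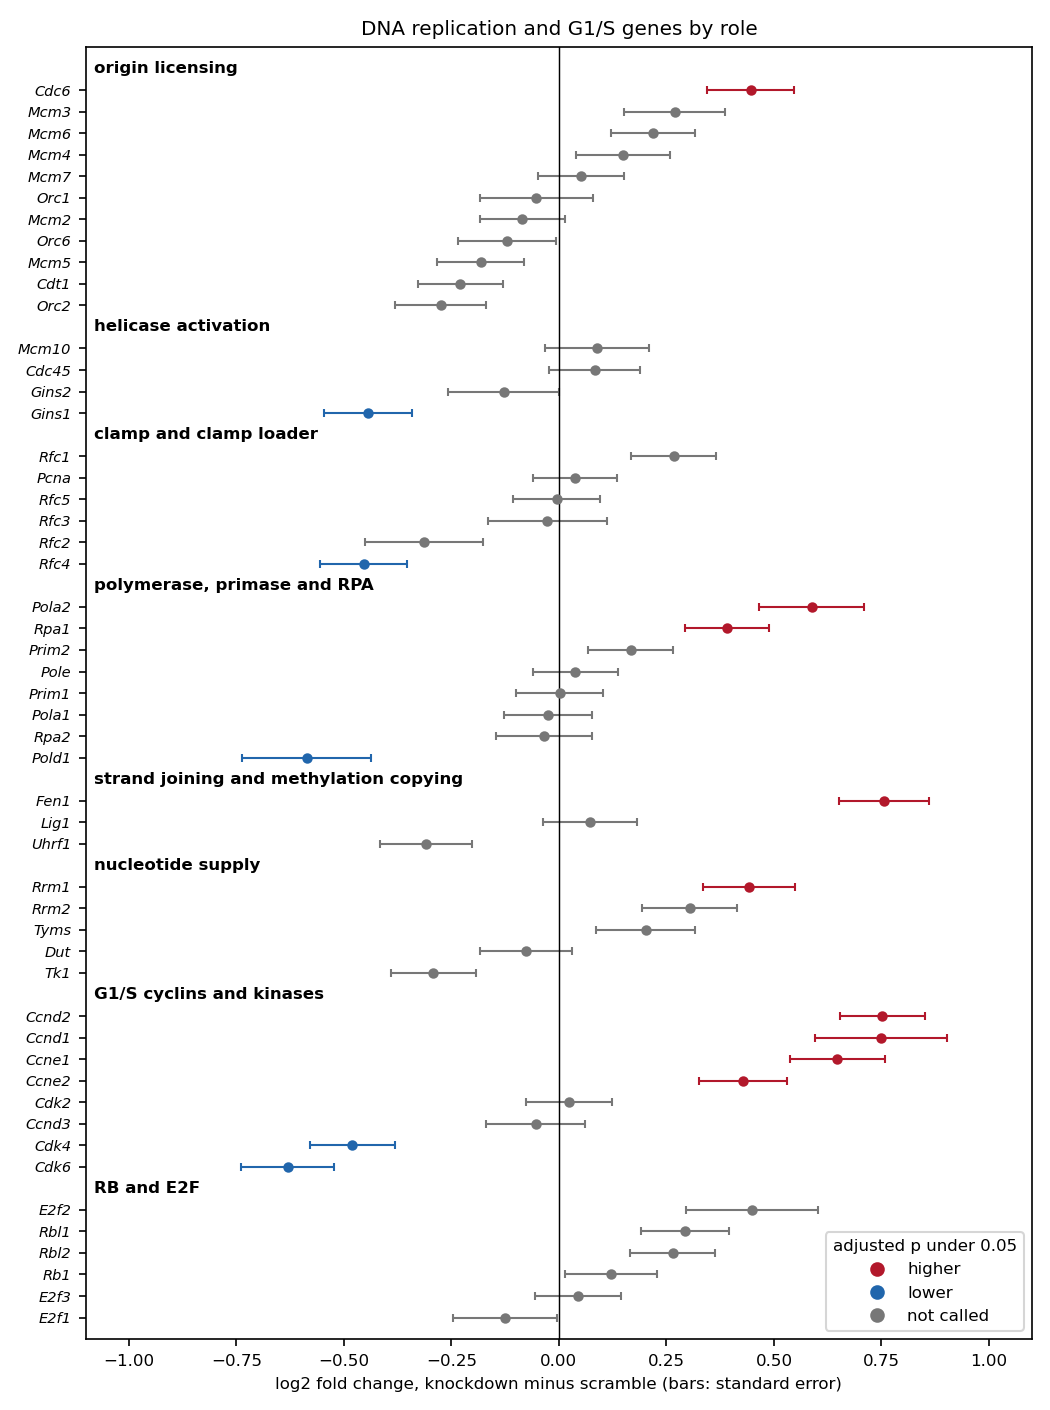
Log2 fold change (knockdown minus scramble, horizontal axis) of the 51 genes, ordered by role, with standard errors as bars. Red marks the 9 genes that were higher and blue the 5 that were lower at an adjusted p under 0.05. The cyclins and kinases spread from -0.63 (Cdk6) to 0.75 (Ccnd2), and the licensing genes other than Cdc6 lie between -0.27 and 0.27.

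Arrays correlated at 0.994 (scramble) and 0.996 (knockdown) within groups and at 0.982 to 0.984 between them, across probe sets. Other measures moved with the groups, and their part in the results below was not tested. For Actb, the control probe set at the 3' end exceeded that at the 5' end by 1.07 ± 0.11 log2 units (SD, n = 2) in scramble and by 1.82 ± 0.08 in knockdown. The same difference for Gapdh was 0.06 ± 0.04 in scramble and 0.37 ± 0.04 in knockdown. For 18S ribosomal RNA, the control probe set in the middle read 4.78 ± 0.49 in scramble and 6.82 ± 0.26 in knockdown. The 18S control probe set at the 3' end read 7.21 and 6.38 in scramble and 6.92 and 7.47 in knockdown, with overlapping groups. Above background were 62.9% of probe sets in scramble and 60.4% in knockdown. Of 4 measured adipocyte markers 0 passed limma's test and 1, Lipe, had an unadjusted p under 0.05. Their log2 fold changes were 0.07 (Adipoq), 0.02 (Fabp4), -0.17 (Pparg) and -0.33 (Lipe, adjusted p = 0.0605), and 1 of the 4 was lower after quantile normalization. Of 6 brown adipocyte markers 5 were lower and 1 higher in knockdown, where 7.18% of all genes were lower and 11.4% higher. Of 9 measured preadipocyte and fibroblast markers 6 were higher (Pdgfra, Pdgfrb, Dlk1, Cd34, Thy1 and Mgp). The log2 of that list's summed level was 10.89 and 10.92 in scramble and 11.42 and 11.54 in knockdown, and Pi16 was at background in both groups. Most of that sum is Vim, which was not called (adjusted p = 0.0534). Vim read 10.62 and 10.66 in scramble and 10.93 and 11.10 in knockdown. Of 8 hepatocyte markers 6 were lower in knockdown, with log2 summed levels of 8.68 and 8.45 in scramble and 7.81 and 7.65 in knockdown, and Fgb was at background. Of 7 macrophage markers 1 was higher (14.3%, near the 11.4% of all genes), Adgre1 at 1.62-fold (adjusted p = 0.0133), and 6 were not called. The log2 of their summed level was 5.75 on both scramble arrays and 5.84 and 5.93 in knockdown, Csf1r and Cd14 read above background, and Lyz2, Itgam and Ptprc were at background in both groups. Of 6 endothelial markers 1 was higher (16.7%, against 11.4% of all genes), Tek at 1.59-fold (adjusted p = 0.0106). Their log2 summed levels were 5.40 and 5.38 in scramble and 5.50 and 5.39 in knockdown. Kdr read above background, and Cdh5, Emcn and Vwf were at background in both groups. Of 3 measured erythroid markers 1 was lower (Hba-a1), and of 6 skeletal muscle markers 1 was lower (Myod1, at background in knockdown).

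Many S phase genes carry binding sites for E2F factors near their start. RefSeq windows were searched on both strands for the E2F-type letters TTCCCGC and also for TTCGCGC as well as for TTGCCGC and finally for TTGGCGC. The windows run from 250 bases before to 50 bases after each gene's start (GRCm38.p6). A window was found for 41 members, and 23 of them (56.1%) held a match, against 16.0% of the 13605 tested genes with a window and 10.9% of all 27025 genes in the table. Matches can overlap, since some of these letters run into their own reverse complement. Of the 23 members with a match, 3 were higher, 2 lower and 18 not called, and of the 18 without one, 3 were higher, 2 lower and 13 not called. A match is a description of these letters and not a bound site.

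The stretches below show the matches before the start in the 3 higher members that have one (Cdc6, Rrm1 and Fen1), and in the helicase genes Mcm5 and Mcm6, which hold several matches and were not called. They are written 5′ to 3′ on the strand of the gene, with the matched letters in capitals.
Cdc6, chr11:98907983-98908049, plus strand: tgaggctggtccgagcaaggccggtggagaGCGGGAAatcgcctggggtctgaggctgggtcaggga
Rrm1, chr7:102441598-102441664, plus strand: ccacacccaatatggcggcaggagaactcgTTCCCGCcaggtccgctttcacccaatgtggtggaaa
Fen1, chr19:10203922-10203985, minus strand: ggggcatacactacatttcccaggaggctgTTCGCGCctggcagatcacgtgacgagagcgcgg
Mcm5, chr8:75109315-75109396, plus strand: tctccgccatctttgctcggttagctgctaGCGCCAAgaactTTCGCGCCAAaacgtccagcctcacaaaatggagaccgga
Mcm6, chr1:128359712-128359844, minus strand: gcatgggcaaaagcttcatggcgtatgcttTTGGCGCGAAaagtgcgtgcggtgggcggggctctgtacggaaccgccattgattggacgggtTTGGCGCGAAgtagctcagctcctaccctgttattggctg
The first match base lies 138 bases before the start in Cdc6, 67 in Rrm1 and 34 in Fen1. In Mcm5 the 3 matches begin 164 to 149 bases before the start, and in Mcm6 the 4 matches begin 109 to 43 bases before it. The lower members Rfc4 and Pold1 held their only match after the start, and the windows of Ccne1, Cdk4, Cdk6, Pola2 and Rpa1 held none of these letters. The called members Ccnd1, Ccnd2, Ccne2 and Gins1 had no window, so the counts with and without a match leave them out.

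Of the 11 origin licensing genes, 1 was higher (9.09%, near the 11.4% of all genes) and 10 did not pass. Cdc6, the ATPase that joins the origin recognition complex to load the helicase, read 5.23 and 5.32 (log2) in scramble and 5.74 and 5.70 in knockdown. The knockdown values were both above the scramble values, a 1.36-fold rise (log2 fold change 0.45, SE 0.10, limma adjusted p = 0.0255). The call was lost after quantile normalization (adjusted p = 0.121) and when scramble replicate 1 (0.0672) or knockdown replicate 1 or 2 (0.143 and 0.129) was left out.

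None of the MCM helicase subunit genes passed. Mcm2 read 8.29 and 8.33 in scramble and 8.24 and 8.21 in knockdown, with a log2 fold change of -0.08 and a 95% interval of -0.32 to 0.15. That interval spans a fold of 0.80 to 1.11. Mcm6 read 9.50 and 9.48 in scramble and 9.72 and 9.71 in knockdown. Its groups did not overlap, but the difference of 0.22 did not pass (adjusted p = 0.166), although it passed when eBayes used a trend. Mcm3 (0.27), Mcm4 (0.15) and Mcm7 (0.05) had positive log2 fold changes and Mcm5 (-0.18) a negative one, all not called. Mcm7 turned to -0.0083 after quantile normalization.

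The origin recognition genes and Cdt1 were not called either. Orc2 read 7.61 and 7.46 in scramble and 7.26 and 7.26 in knockdown, a log2 fold change of -0.27 (adjusted p = 0.121). Cdt1, the loader that the cell destroys once S phase begins, read 9.66 and 9.64 in scramble and 9.39 and 9.45 in knockdown, a log2 fold change of -0.23 (adjusted p = 0.154). Both sets of groups did not overlap, and both genes passed as lower with a trend in eBayes. Orc1 (-0.05) and Orc6 (-0.12) had overlapping groups.

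Of the 4 genes that turn the loaded MCM ring into a working helicase, 1 was lower (25%, against 7.18% of all genes). Gins1, a subunit of the GINS complex that travels with the helicase, read 6.66 and 6.55 in scramble and 6.13 and 6.19 in knockdown. Its knockdown values were both below the scramble values, a 1.36-fold fall (log2 fold change -0.44, SE 0.10, adjusted p = 0.0272). Leaving out scramble replicate 1 gave an adjusted p of 0.0723, and leaving out knockdown replicate 1 or 2 gave 0.156 and 0.125. Gins2, another subunit of the complex, had a log2 fold change of -0.13 with overlapping groups, and a dimmer probe set of it read -0.35 (adjusted p = 0.0591 over all probe sets). Cdc45 (0.08) and Mcm10 (0.09) had overlapping groups.

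Pcna, the sliding clamp that holds polymerases on DNA and a common marker of cycling cells, read 10.94 and 10.90 in scramble and 10.96 and 10.95 in knockdown. The difference was 0.04 log2 units (95% interval -0.19 to 0.27, adjusted p = 0.828). That interval spans a fold of 0.87 to 1.20 and covers only the spread between these arrays in the main fit. The difference was 0.07 after quantile normalization and 0.10 with each array centred on its median.

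The subunits of the clamp loader that opens PCNA had log2 fold changes of both signs, and the difference between subunits was not tested. Rfc4 read 8.11 and 8.14 in scramble and 7.72 and 7.62 in knockdown, a 1.37-fold fall (log2 fold change -0.45, SE 0.10, adjusted p = 0.0243) with groups that did not overlap. A dimmer probe set of Rfc4 read 7.33 and 7.27 in scramble and 7.30 and 7.31 in knockdown, a difference of 0.0039, and with the mean of both probe sets the adjusted p was 0.10. The call was also lost without scramble replicate 2 (0.054) and without knockdown replicates 1 and 2 (0.0941 and 0.167). Rfc1, the large subunit, had a log2 fold change of 0.27 and Rfc2 of -0.31, both without overlap and both not called (adjusted p = 0.108 and 0.161). Rfc5 (-0.0047) and Rfc3 (-0.03) had overlapping groups. A dimmer probe set of Rfc3 gave 0.48 in the other direction (adjusted p = 0.0221 over all probe sets), so the 2 probe sets of Rfc3 disagree.

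Among the 8 polymerase, primase and RPA genes, 2 were higher (25%) and 1 lower (12.5%), against 11.4% and 7.18% of all genes. Pola2, the regulatory subunit of the polymerase that starts each new strand, read 5.66 and 5.46 in scramble and 6.24 and 6.05 in knockdown, a 1.503-fold rise (log2 fold change 0.59, SE 0.12, adjusted p = 0.0196). Its catalytic partner Pola1 read 7.42 and 7.53 in scramble and 7.43 and 7.47 in knockdown, with no separation of the groups (log2 fold change -0.03). The primase genes Prim1 (0.0014) and Prim2 (0.17) were not called. The rise of Pola2 was lost after quantile normalization (0.0545) and when scramble replicate 2 (0.051) or knockdown replicate 1 or 2 (0.123 and 0.0582) was left out.

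Pold1, the catalytic subunit of the polymerase that copies the lagging strand, read 5.62 and 5.71 in scramble and 5.28 and 4.87 in knockdown. The knockdown arrays differed from each other by more than the scramble arrays did, and both lay below them, a 1.501-fold fall (log2 fold change -0.59, SE 0.15, adjusted p = 0.0378). The adjusted p was 0.0533 after median centring, 0.0607 and 0.0882 without scramble replicates 1 and 2, and 0.198 without knockdown replicate 2. Pole, the catalytic subunit of the leading strand polymerase, did not differ beyond its spread (0.04, 95% interval -0.20 to 0.27).

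RPA coats single-stranded DNA at the fork. Its large subunit gene Rpa1 read 9.32 and 9.32 in scramble and 9.73 and 9.70 in knockdown, a 1.31-fold rise (log2 fold change 0.39, SE 0.10, adjusted p = 0.0345). A dimmer probe set of Rpa1 rose by 0.49 (adjusted p = 0.0216 over all probe sets). The call was lost after quantile normalization (0.0546), without scramble replicates 1 and 2 (0.0704 and 0.0655) and without knockdown replicates 1 and 2 (0.181 and 0.162). Rpa2 had overlapping groups in its brightest probe set (-0.04), while its dimmer probe set read 5.70 and 5.43 in scramble and 4.38 and 4.73 in knockdown, a log2 fold change of -1.01 (adjusted p = 0.0076 over all probe sets). Rpa3, the small subunit gene, which is on the list of other replication genes, was 1.60-fold lower (adjusted p = 0.00855).

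Fen1, the flap endonuclease that trims the primer ends of lagging strand fragments, read 5.22 and 5.08 in scramble and 5.90 and 5.91 in knockdown, a 1.69-fold rise (log2 fold change 0.76, SE 0.10, adjusted p = 0.00453). It passed with each array left out in turn, with adjusted p-values from 0.00675 to 0.0391. Lig1, the ligase that seals the same fragments, read 7.66 and 7.83 in scramble and 7.78 and 7.86 in knockdown, with overlapping groups.

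Uhrf1, which brings the maintenance DNA methyltransferase to newly copied DNA, read 7.92 and 8.08 in scramble and 7.71 and 7.67 in knockdown. Its groups did not overlap, and the log2 fold change of -0.31 did not pass (adjusted p = 0.0916). A dimmer probe set of Uhrf1 read 5.88 and 5.39 in scramble and 4.60 and 4.35 in knockdown, a log2 fold change of -1.15 (adjusted p = 0.00792 over all probe sets), and with the mean of the 2 probe sets the gene passed as lower.

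Of the 5 nucleotide supply genes, 1 was higher (20%, against 11.4% of all genes). Rrm1, the large subunit of ribonucleotide reductase, which makes deoxyribonucleotides, read 8.43 and 8.60 in scramble and 8.97 and 8.94 in knockdown, a 1.36-fold rise (log2 fold change 0.44, SE 0.11, adjusted p = 0.0318). A dimmer probe set rose by 0.64 (adjusted p = 0.0360 over all probe sets). Leaving out scramble replicate 1 gave an adjusted p of 0.0877, and leaving out knockdown replicate 1 or 2 gave 0.157 and 0.147. Rrm2, the small subunit whose level follows S phase, read 8.94 and 9.13 in scramble and 9.32 and 9.35 in knockdown, without overlap and without a call (0.30, adjusted p = 0.105). Tk1, which salvages thymidine, read 7.96 and 7.91 in scramble and 7.66 and 7.62 in knockdown, a log2 fold change of -0.29 that did not pass (adjusted p = 0.0865), and passed as lower after quantile normalization. Tyms, which makes thymidylate, had a log2 fold change of 0.20, and its dimmer probe sets above background gave 0.79 and -0.35. Dut had overlapping groups (-0.08).

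**Figure D2:**
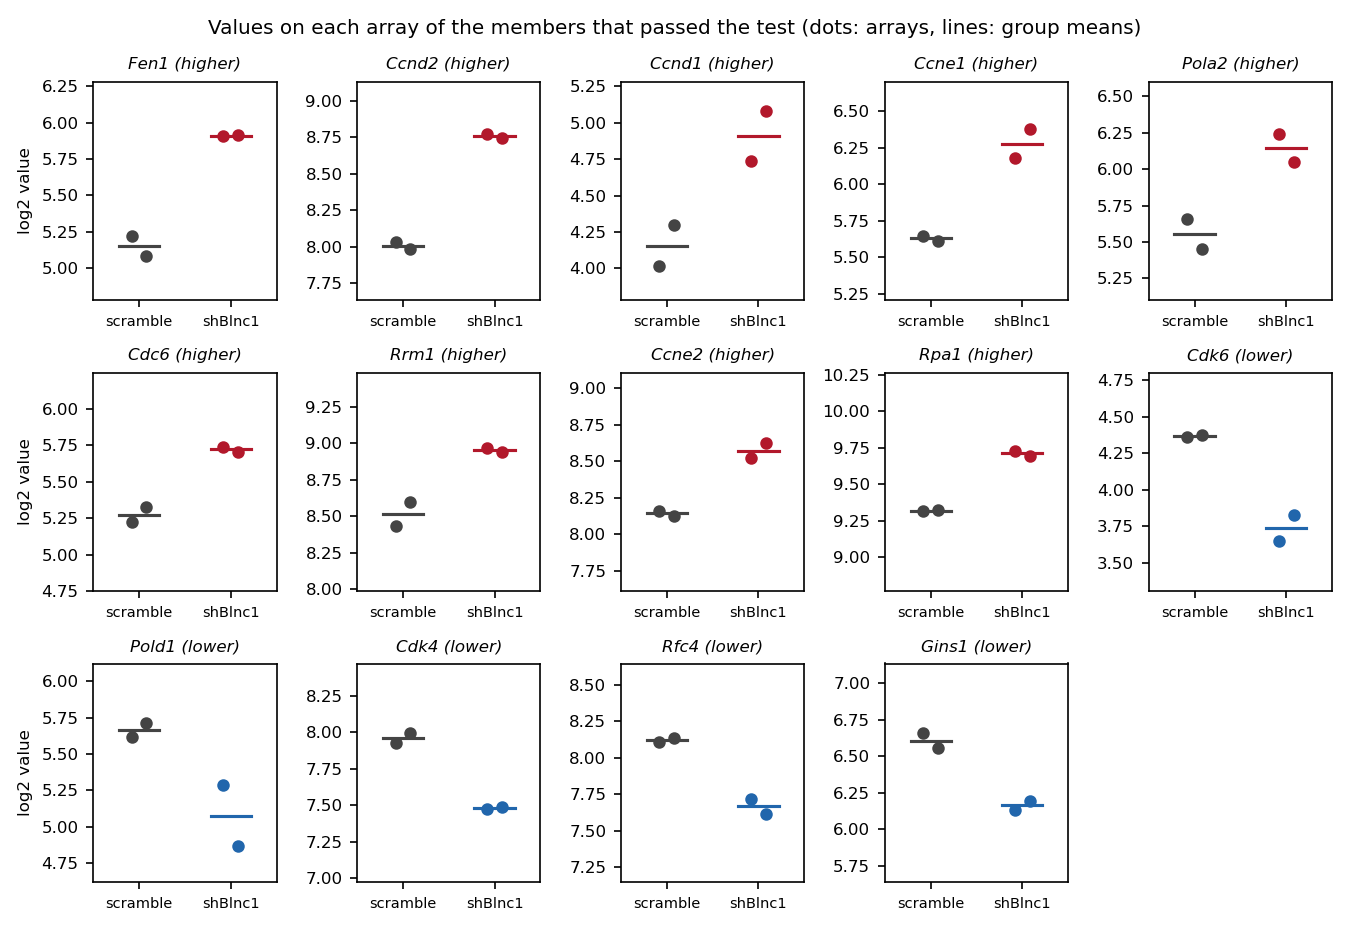
Log2 value on each array (dots) and group mean (lines) of the 14 members that passed the test, each panel spanning 1.5 log2 units. The scramble and knockdown arrays do not overlap in any panel, which is no separate result, since only genes that passed are shown. The knockdown arrays of Pold1, at 5.28 and 4.87, lie furthest apart.

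The cyclins and kinases that drive G1 into S phase held 6 of the 14 called members. Of 8 genes, 4 cyclins were higher (50%) and the kinases Cdk4 and Cdk6 were lower (25%). Among all genes 11.4% were higher and 7.18% lower, and among genes with a mean above background 15.3% and 8.94%. The difference between this small group and the other members was not tested. Ccnd3 and Cdk2 were not called. These 6 genes kept their sign after quantile normalization and after median centring, and all passed under both.

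Ccnd2, a D-type cyclin that activates CDK4 and CDK6, read 8.03 and 7.98 in scramble and 8.77 and 8.75 in knockdown. Both knockdown arrays lay above both scramble arrays, and the rise was 1.68-fold (log2 fold change 0.75, SE 0.10, adjusted p = 0.00373). It passed with each array left out in turn, with adjusted p-values from 0.00827 to 0.0333. Ccnd2 has 6 probe sets, of which 5 were above background. The 4 dimmer ones among these gave log2 fold changes of 0.53, 0.18, 0.25 and 1.54, all positive. Their limma adjusted p-values over all probe sets were 0.0568, 0.313, 0.198 and 0.00278. Only the last passed, and the size of the rise differs between probe sets.

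Ccnd1, the D-type cyclin that growth factors induce, read 4.02 and 4.30 in scramble and 4.73 and 5.08 in knockdown, a 1.68-fold rise (log2 fold change 0.75, SE 0.15, adjusted p = 0.0186). Another probe set of Ccnd1 read 3.10 and 3.52 in scramble and 4.78 and 5.23 in knockdown, a log2 fold change of 1.69 (adjusted p = 0.0030 over all probe sets). The dimmest, close to background, gave 0.59 and did not pass (0.083), so the size of the rise differs between probe sets. Without scramble replicate 1 and without knockdown replicate 2 the adjusted p of the brightest was 0.0509 and 0.109. Ccnd3, the third D-type cyclin, read 6.38 and 6.17 in scramble and 6.19 and 6.25 in knockdown, with overlapping groups (-0.05, 95% interval -0.33 to 0.22).

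The E-type cyclins, which activate CDK2 at the start of S phase, were both higher. Ccne1 read 5.65 and 5.61 in scramble and 6.18 and 6.38 in knockdown, a 1.57-fold rise (log2 fold change 0.65, SE 0.11, adjusted p = 0.0099), which was lost only without knockdown replicate 2 (0.0818) among the arrays left out. Ccne2 read 8.16 and 8.13 in scramble and 8.52 and 8.62 in knockdown, a 1.35-fold rise (log2 fold change 0.43, SE 0.10, adjusted p = 0.0293). Its adjusted p was 0.0543 and 0.0644 without scramble replicates 1 and 2, and 0.107 and 0.192 without knockdown replicates 1 and 2. Their partner Cdk2 read 7.13 and 7.14 in scramble and 7.20 and 7.12 in knockdown, with overlapping groups.

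Both kinases that pair with D-type cyclins were lower. Cdk6 read 4.37 and 4.38 in scramble and 3.65 and 3.83 in knockdown, a 1.55-fold fall (log2 fold change -0.63, SE 0.11, adjusted p = 0.0099), and its dimmer probe set above background fell by 0.76 (adjusted p = 0.0137 over all probe sets). Its call was lost without knockdown replicate 1 (0.0781). Cdk4 read 7.93 and 7.997 in scramble and 7.47 and 7.49 in knockdown, a 1.40-fold fall (log2 fold change -0.48, SE 0.10, adjusted p = 0.0192). The brightest probe set of Cdk4 is of a type that can bind other transcripts. Its probe set of the specific type gave -0.73 (adjusted p = 0.0056 over all probe sets). The adjusted p of the brightest was 0.114 and 0.111 without knockdown replicates 1 and 2.

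Of the 6 RB and E2F genes, 0 passed limma's test, where 18.5% of all genes did. An unadjusted p under 0.05 was found for 3 (E2f2, Rbl1 and Rbl2), and for 5781 of all 17097 genes. E2f2 and Rbl1 passed as higher with a trend in eBayes, and E2f2 also with the mean of its probe sets. E2f2, an activating E2F, read 4.99 and 4.61 in scramble and 5.14 and 5.37 in knockdown (0.45, adjusted p = 0.0887), and its dimmer probe set rose by 0.87 (adjusted p = 0.00575 over all probe sets). E2f1 read 5.21 and 4.94 in scramble and 4.97 and 4.93 in knockdown, with overlapping groups (-0.12, adjusted p = 0.518). E2f3 overlapped too (0.04). Rb1, the retinoblastoma gene, read 7.82 and 7.68 in scramble and 7.92 and 7.82 in knockdown, where the groups are separated by less than 0.01 and the difference of 0.12 did not pass (adjusted p = 0.477). The related pocket protein genes Rbl1 and Rbl2 had log2 fold changes of 0.29 and 0.26 (adjusted p = 0.0958 and 0.111).

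The choice of probe set mattered for several of these genes. The 51 members have 100 probe sets, and 30 members have at least 1 dimmer probe set above background. Of those 39 dimmer probe sets, 13 (33.3%) passed over all probe sets, where 21% of the 29275 probe sets above background in at least 1 group and 14.1% of all 45037 passed. A sign opposite to the brightest was found in 9. Among the called members, Rfc4 was the 1 with an opposite sign, and 6 of the 7 with a dimmer probe set above background had at least 1 that passed. Among the members not called, 6 had a dimmer probe set that passed: E2f2, Prim2, Rfc3, Rpa2, Tyms and Uhrf1. The probe sets of Prim2 went apart, with 0.44 and -0.40.

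**Figure D3:**
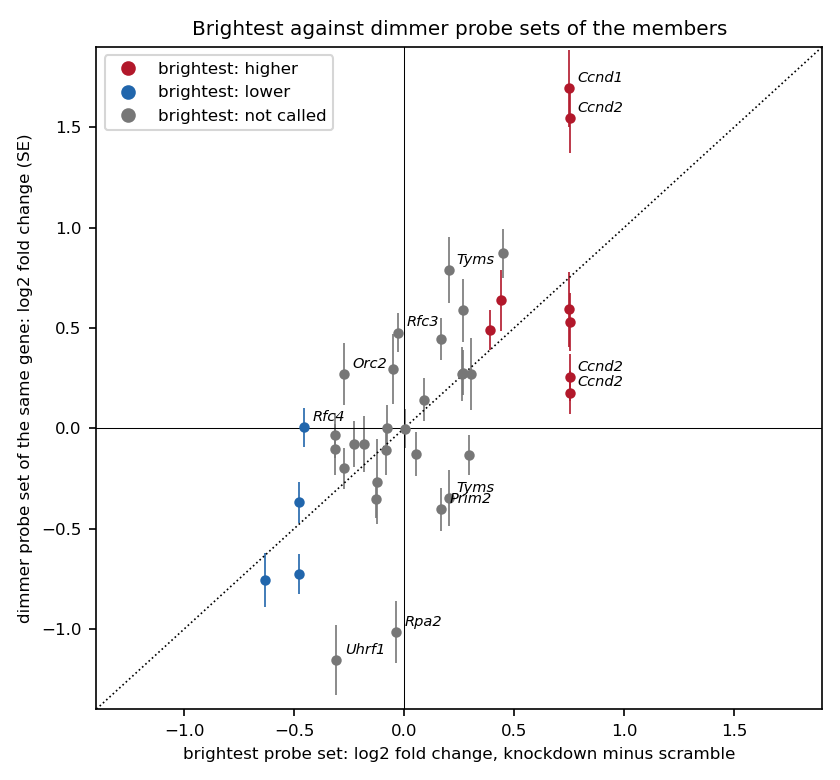
Log2 fold change of each of the 39 dimmer probe sets above background (vertical axis, with standard error) against that of the brightest probe set of the same gene (horizontal axis), both knockdown minus scramble. The dotted line marks equal values, and names are given where the 2 differ by more than 0.45. Ccnd1 (1.69) and Ccnd2 (1.54) lie above the line, and Uhrf1 (-1.15) and Rpa2 (-1.01) below it.

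Other genes of the same pathway, listed by function with earlier results of these data known, also moved in both directions. Of 36 other replication genes measured, 3 were higher (Ticrr, Samhd1 and Dtl) and 5 lower, which is 8.33% and 13.9% against 11.4% and 7.18% of all genes. Quantile normalization gave 2 higher and 8 lower (8.86% and 9.15% of all genes), and a trend in eBayes 5 and 8 (15% and 10.5%). Pold2, the accessory subunit of the polymerase that Pold1 belongs to, read 7.73 and 7.69 in scramble and 6.96 and 6.92 in knockdown, a 1.71-fold fall (adjusted p = 0.00338). Rnaseh2a, the catalytic subunit of the RNase that removes RNA from DNA, was also 1.71-fold lower (adjusted p = 0.00364). Dctpp1, which clears modified nucleotides, was 1.42-fold lower, and Tipin, a fork protection gene, 1.37-fold lower. Without knockdown replicates 1 and 2 the counts were 1 higher with 3 lower and 0 higher with 2 lower.

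Of 24 other G1/S control genes measured, 7 were higher and 1 was lower, which is 29.2% and 4.17% against 11.4% and 7.18% of all genes. With a trend in eBayes 12 were higher and 2 lower (15% and 10.5% of all genes), and after quantile normalization 4 were higher (8.86%). Without knockdown replicates 1 and 2, 3 and 4 were higher (5.39% and 4.65%). Cdkn2a, whose locus encodes the CDK4 and CDK6 inhibitor p16INK4a and the p53 activator p19ARF, read 7.85 and 7.80 in scramble and 8.80 and 9.14 in knockdown, a 2.21-fold rise (adjusted p = 0.00256). Its probe set was not assigned to either product. Its neighbour Cdkn2b, which encodes the related inhibitor p15INK4b, read 6.54 and 6.43 in scramble and 7.41 and 7.47 in knockdown, a 1.94-fold rise (adjusted p = 0.00191). Fbxo5, an inhibitor of the ubiquitin ligase APC/C, was 1.85-fold higher, and Skp2, which targets p27 for destruction, 1.57-fold higher (adjusted p = 0.0197, 0.0636 after quantile normalization and 0.0858 with its specific probe set). Myc was 1.48-fold lower (adjusted p = 0.0194), a call that ended at 0.127 when knockdown replicate 1 was left out. The CIP/KIP inhibitor genes Cdkn1a (-0.08), Cdkn1b (-0.17) and Cdkn1c (0.06) were not called.

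Of 9 measured G2 and mitosis genes, 6 were higher (66.7%, against 11.4% of all genes and 15.3% of genes with a mean above background). This list, like the others, was chosen with earlier results of these data known, so the contrast in shares is a description only. Aurkb was 2.57-fold (adjusted p = 0.000611), Bub1 1.56-fold, Mki67 1.49-fold and Top2a 1.41-fold higher. Mki67, the proliferation marker, read 8.47 and 8.43 in scramble and 9.06 and 8.99 in knockdown (adjusted p = 0.0103). Without knockdown replicate 1 or 2 the count was 1 each time, against 5.39% and 4.65% of all genes. It was 4 without scramble replicate 2 and 4 with the mean of a gene's probe sets. The probe set of Top2a of the specific type gave -0.08, and after quantile normalization 5 of the genes passed. The median log2 fold change was 0.49 for this list, 0.24 for the other G1/S control genes and 0.04 for the members, and the difference between these lists was not tested.

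**Figure D4:**
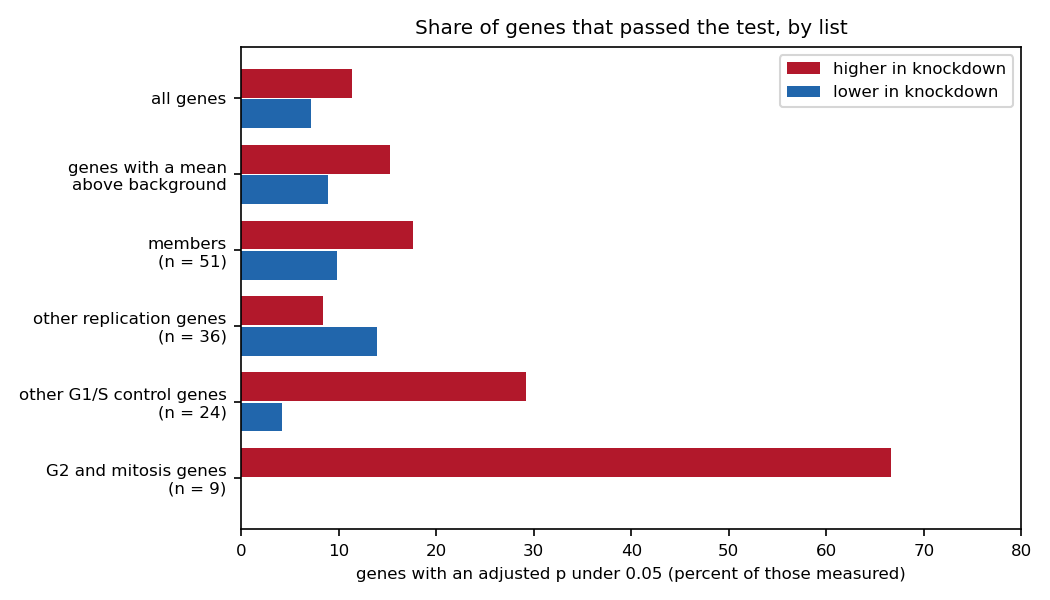
Percent of genes that passed the test as higher (red) or lower (blue) in knockdown, among all genes, genes with a mean above background, the 51 members and the 3 lists of related genes. The members' bars (17.6% and 9.80%) are near those of genes above background (15.3% and 8.94%), while 66.7% of the 9 G2 and mitosis genes were higher. The lists were chosen with earlier results of these data known.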

How the data were processed

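The authors deposited log2 expression values, 1 per probe set and array, from Affymetrix mouse PM strip arrays. Per the submitters' processing notes, affy, RMA and limma were used, but how the deposited values were normalized is not stated there. Their range, 1.05 to 12.36, is that of a log2 scale. Precision is limited by the number of arrays, 2 a group. Of 45141 probe sets, 104 controls were left out, and 28898 of the rest carry exactly 1 symbol. The background log2 value is the highest antigenomic control value, with 3 to 24 G or C bases. limma 3.58.1 in R 4.3.3 (lmFit, eBayes, 45037 probe sets, group only, two-sided) gave 2 residual and 4.93 prior degrees of freedom. P-values were adjusted by Benjamini-Hochberg over 17097 genes, or over all probe sets where said. Intervals use the moderated standard error. The fit was tested on simulated data. Members and lists were chosen with earlier results of these data known. Members are given on every array if called or fixed by name (Pcna, Mcm2, Ccnd1, Ccne1, Cdk4, E2f1, Rb1), and a few others as examples. Of each other list, up to 4 called genes a direction are named, and other genes were chosen after their values were seen. Alternatives are listed in the closing section. Same-numbered replicates deviated together with r = 0.03, so they were not treated as pairs. Promoter windows are from RefSeq (GRCm38.p6). Plots used matplotlib 3.10.9.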

Additional observations from a re-analysis of the deposited data

How the results depend on the processing

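The 9 higher and 5 lower members became 14 and 9 with a trend in eBayes, and 0 and 0 with treat against 0.5, where a larger change is asked for. Leaving out each array in turn gave 2 to 6 higher and 1 to 3 lower members. A group then left with a single array took its spread from the other. The members' median log2 fold change of 0.04 moved to -0.060 with quantile normalization and to 0.10 with median centring. Robust eBayes, leaving out the dimmest 40 percent of genes, the mean of all probe sets and the brightest probe set of the specific type kept both counts within 1.5 times. With the replicate block 9 members were higher and 5 lower, as without it, and no member's call changed. No called member changed sign under any alternative run. Signs turned for members that were not called. With quantile normalization these were Mcm7 (-0.0083), Cdc45 (-0.048), Prim1 (-0.060), Pole (-0.090), Cdk2 (-0.084) and E2f3 (-0.095), and with median centring Orc1 (0.012), Rfc3 (0.037), Rfc5 (0.060), Pola1 (0.039), Rpa2 (0.029) and Ccnd3 (0.010). With the mean of all probe sets they were Orc1 (0.12), Mcm7 (-0.039), Rfc3 (0.22), Prim1 (-0.0010) and E2f3 (-0.052). The specific type gave 0.48 for Rfc3 and turned the mitosis gene Top2a (-0.080), which had been called. With an array left out, values ranged from -0.19 to 0.088 for Orc1, -0.016 to 0.19 for Mcm10, -0.28 to 0.021 for Gins2, -0.20 to 0.14 for Rfc3, -0.056 to 0.047 for Rfc5, -0.083 to 0.032 for Pola1 and -0.055 to 0.058 for Prim1. They ranged from -0.13 to 0.062 for Rpa2, -0.0099 to 0.16 for Lig1, -0.16 to 0.054 for Ccnd3, -0.020 to 0.068 for Cdk2 and -0.26 to 0.0091 for E2f1. The causes were not tested. With 2 arrays a group, the median standard error of 0.11 log2 units limits which differences can pass.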
